A study of Mus musculus with 6 samples.

Results

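The genes described here are 10 genes of microglia and of the complement system, given as a list of names, with no measured value in the rule, out of 21744 genes in the expression table of the series. They encode the 3 chains of C1q (*C1qa*, *C1qb*, *C1qc*), 4 surface receptors (*Cx3cr1*, *Csf1r*, *P2ry12*, *Itgam*), the receptor *Trem2* with its signalling partner *Tyrobp*, and the cytoplasmic protein *Aif1*. All 10 were in the table and had a mean of 0.1 FPKM or more (fragments scaled to exon length and library size) over the 6 libraries, the minimum for testing. RNA-seq was performed on mouse retinas at postnatal day 7, with the retinas of each animal pooled as 1 library, giving 3 control libraries and 3 libraries labelled *Lhx4* null. In the null animals, a floxed *Lhx4* allele stands over an allele carrying tdTomato, and *Six3-Cre*, which is active in the developing retina, removes the floxed sequence there. For its other experiments the study used controls that were wild type or *Lhx4* loxP/+, or carried the tdTomato allele, and which of these the sequenced controls were is not given in the sources used here. Both groups were on a C57BL/6J; 129S6 mixed background, and the pigment epithelium was removed at dissection.

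Microglia are the resident macrophages of the retina and brain; they arise from yolk sac progenitors and enter the retina from outside, so they do not descend from the retinal progenitors in which *Six3-Cre* is active. They take up dying neurons and synaptic material in the developing retina and are the main source of C1q in the central nervous system. C1q is the recognition molecule of the classical complement pathway, and its chains A, B and C assemble into 1 protein.

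*Lhx4* itself, a LIM-homeodomain gene of bipolar cells, was read at 20.9, 23.8 and 19.1 FPKM in control libraries against 31.2, 30.3 and 29.0 FPKM in those labelled null. The labelled null libraries were therefore the higher ones, a log2 fold change of 0.51 ± 0.09 (SE; adjusted p = 0.0978, limma). An FPKM over the whole gene does not show whether the floxed part was read, so *Lhx4* does not check the labels, and a direction given here is between libraries as labelled. The 6 rod genes of the marker lists summed to 3027 to 3511 FPKM in the controls and 2512 to 3291 FPKM in the labelled null libraries, as a retina would give, and *Grm6*, a receptor of ON bipolar cells, was lower in the labelled null libraries (log2 fold change -1.49 ± 0.15, adjusted p = 0.00912). Over all 15200 genes tested, 34 passed an adjusted p of 0.05 (0.224%), 21 lower and 13 higher in the labelled null libraries, and the median log2 fold change was 0.01. The table holds no counts, and relative depth estimated from its lowest values, as a percentage of that of control replicate 3, was 76.9 to 100 in the control libraries and 46.7 to 65.9 in the labelled null libraries. This difference has an exact two-sided permutation p of 0.1, the smallest that 3 libraries against 3 can give.

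The sequences before the annotated start are shown for 4 of the 10 genes, since PU.1, the transcription factor that governs macrophage and microglial genes, binds a purine-rich core such as GAGGAA. Windows of 250 bases were taken from RefSeq (GRCm38.p6), 5′ to 3′ along the gene's own strand, ending at the base before the start, and were found for 7 of the 10 genes. Capitals mark GAGGAA or its reverse complement TTCCTC.
*C1qb* chr4:136886201-136886450, minus strand: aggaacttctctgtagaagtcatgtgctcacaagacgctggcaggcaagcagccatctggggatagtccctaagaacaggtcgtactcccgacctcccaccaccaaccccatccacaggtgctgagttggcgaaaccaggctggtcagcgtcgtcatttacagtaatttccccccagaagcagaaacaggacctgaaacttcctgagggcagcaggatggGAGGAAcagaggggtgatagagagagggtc
*Trem2* chr17:48346151-48346400, plus strand: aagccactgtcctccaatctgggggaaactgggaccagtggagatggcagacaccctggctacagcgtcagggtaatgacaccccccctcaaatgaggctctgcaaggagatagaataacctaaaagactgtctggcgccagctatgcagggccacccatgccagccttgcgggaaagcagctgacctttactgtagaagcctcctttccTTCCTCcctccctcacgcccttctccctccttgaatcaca
*Itgam* chr7:128062390-128062639, plus strand: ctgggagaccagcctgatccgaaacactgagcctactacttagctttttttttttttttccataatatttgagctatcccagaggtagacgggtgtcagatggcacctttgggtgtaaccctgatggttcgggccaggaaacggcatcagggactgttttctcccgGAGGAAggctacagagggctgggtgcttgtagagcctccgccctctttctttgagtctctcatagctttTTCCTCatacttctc
*P2ry12* chr3:59262986-59263235, minus strand: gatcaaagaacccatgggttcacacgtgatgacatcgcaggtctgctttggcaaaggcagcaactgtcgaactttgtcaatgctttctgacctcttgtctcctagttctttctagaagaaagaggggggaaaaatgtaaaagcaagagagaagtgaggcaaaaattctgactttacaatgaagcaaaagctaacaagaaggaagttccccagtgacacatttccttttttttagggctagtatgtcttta
The motif was in 5 of the 7 windows. Its first base was at position -30 for *C1qb*, -40 for *Trem2* (reverse), -84 and -15 for *Itgam* (the latter reverse), -193 for *C1qc* (reverse) and -7 for *Aif1* (reverse). The windows of *P2ry12* and *Cx3cr1* held no match. The starts are those of RefSeq and can differ from the GENCODE positions given below. By those, the *Cx3cr1* window, the *Aif1* match and part of the *C1qc* window lie inside the gene. Of all 32851 RefSeq windows of the same length, 23.3% held the motif on either strand. These are matches of letters, and binding was not measured here.

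The 3 C1q chains were the most abundant of the 10 genes by mean FPKM and showed nearly equal levels, with no difference between the groups that passed the test. *C1qa* (chr4:136895917-136898803, minus strand, GRCm38, GENCODE vM21) was at 6.87, 8.59 and 8.06 FPKM in control libraries against 9.47, 7.57 and 11.9 FPKM in labelled null libraries. *C1qb* (chr4:136880129-136886187) was at 7.82, 7.20 and 8.92 FPKM against 8.79, 7.97 and 12.3 FPKM. *C1qc* (chr4:136889804-136893065) was at 6.75, 7.82 and 7.55 FPKM against 7.97, 6.33 and 10.2 FPKM. The groups overlapped for each chain, and the highest value of each was in labelled null replicate 3. On the log2(FPKM + 0.1) scale, the fold changes were 0.28 ± 0.16 for *C1qa* (SE; adjusted p = 0.695), 0.26 ± 0.16 for *C1qb* (adjusted p = 0.707) and 0.12 ± 0.16 for *C1qc* (adjusted p = 0.880), by limma with Benjamini-Hochberg adjustment over all genes tested. In terms of fold, the 95% intervals reached from 0.935 to 1.57 for *C1qa*, from 0.922 to 1.55 for *C1qb* and from 0.839 to 1.41 for *C1qc*.

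Within a library, the chains kept close to a common level. The ratio of *C1qa* to *C1qb* FPKM was 0.878 to 1.19 in the control libraries and 0.950 to 1.08 in the labelled null libraries. *C1qa* stood slightly above *C1qc* in all 6 libraries, by 1.02, 1.10 and 1.07 times in the controls and by 1.188, 1.196 and 1.164 times in the labelled null libraries. These groups of ratios did not overlap. The ratio is among 9 formed between members, was singled out after its values were seen, and is given with no test.

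**Figure D1:**
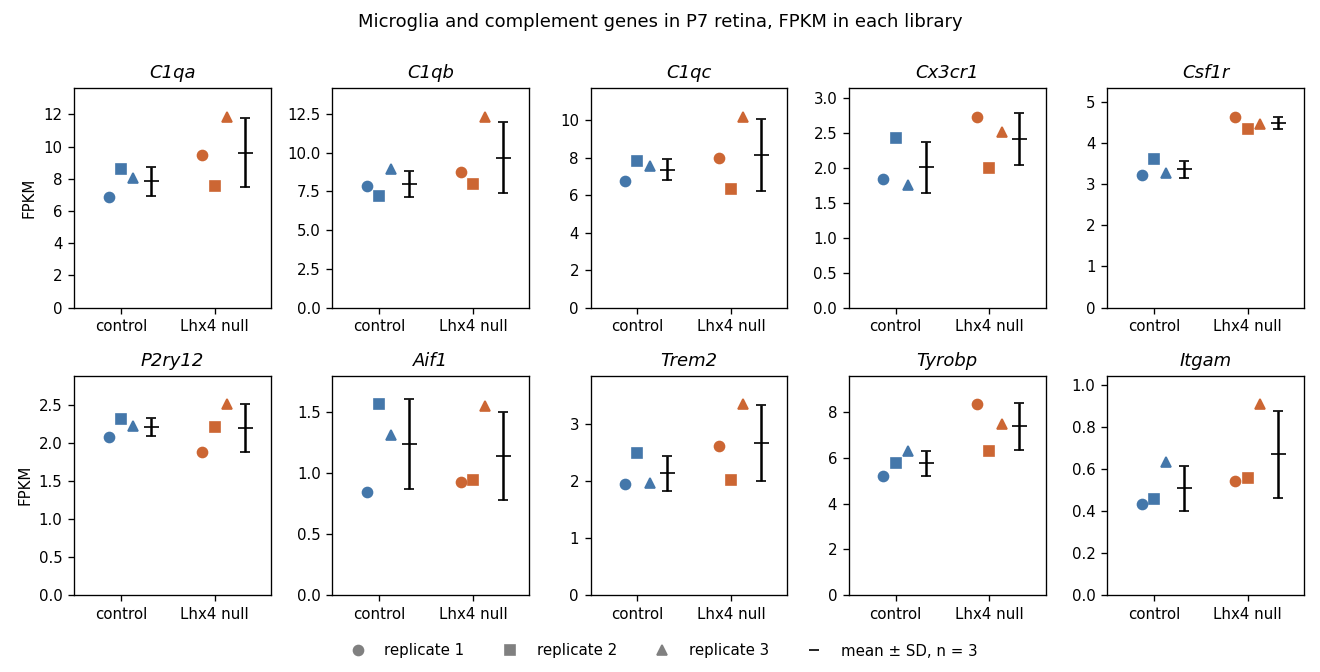
FPKM of each gene (y axis, from 0, on its own scale) in the 3 control libraries and the 3 libraries labelled *Lhx4* null; symbols are replicates, and the bars are mean ± SD (n = 3). *Csf1r* is the gene whose groups do not overlap, and labelled null replicate 3 holds the highest value for 6 of the 10 genes.

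Among the surface receptors, *Csf1r*, the receptor for the survival factors CSF1 and IL-34 on which microglia depend, was higher in all 3 labelled null libraries than in any control, but it did not pass the test across all genes. It lies on the plus strand at chr18:61100598-61132149 and was at 3.22, 3.60 and 3.27 FPKM in control libraries against 4.63, 4.34 and 4.46 FPKM in labelled null libraries. The mean was 3.36 ± 0.21 (SD, n = 3) against 4.48 ± 0.15 FPKM, a log2 fold change of 0.40 ± 0.10 (SE), or 1.32-fold with a 95% interval of 1.12 to 1.56. The unadjusted p was 0.00410 and the adjusted p 0.335 (limma), and *Csf1r* ranked 186 by p among all genes tested. Of its exonic bases, 15.1% lie in exons of the neighbouring *Hmgxb3*, whose own log2 fold change was 0.02 ± 0.09.

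*Cx3cr1* (chr9:119901616-120069879, minus strand), the receptor for neuronal fractalkine, was at 1.84, 2.42 and 1.76 FPKM in control libraries against 2.73, 2.00 and 2.51 FPKM in labelled null libraries. *P2ry12* (chr3:59216272-59262871, minus strand), the ADP receptor that guides microglial processes, was at 2.08, 2.32 and 2.23 FPKM against 1.89, 2.21 and 2.52 FPKM. *Itgam* (chr7:128062640-128118491, plus strand), which encodes the CD11b chain of complement receptor 3, was at 0.435, 0.459 and 0.632 FPKM against 0.542, 0.557 and 0.909 FPKM. The groups overlapped for all 3 genes. Their log2 fold changes were 0.26 ± 0.17 for *Cx3cr1* (adjusted p = 0.720), -0.01 ± 0.14 for *P2ry12* (adjusted p = 0.992) and 0.32 ± 0.25 for *Itgam* (adjusted p = 0.752). For *P2ry12* the 95% interval of the fold was 0.791 to 1.24. *Itgam* shares 68.7% of its exonic bases with the annotated gene *Gm49368*, so its reads could be divided between these genes.

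Set against *Csf1r* in the same library, *P2ry12* was at 0.647, 0.645 and 0.682 times its FPKM in the controls and at 0.407, 0.509 and 0.564 times in the labelled null libraries, without overlap. The ratios of *C1qa*, *Tyrobp*, *Cx3cr1* and *Aif1* to *Csf1r* overlapped between the groups, with group means of 2.33 against 2.15, 1.72 against 1.64, 0.595 against 0.538 and 0.366 against 0.255. The *P2ry12* ratio was singled out after its values were seen and is given with no test.

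*Trem2*, a lipid-sensing receptor of microglia, signals through the adaptor *Tyrobp*, and both had higher means in the labelled null libraries. *Trem2* (chr17:48346401-48354147, plus strand) was at 1.960, 2.495 and 1.963 FPKM in control libraries against 2.62, 2.03 and 3.36 FPKM in labelled null libraries, a log2 fold change of 0.29 ± 0.20 (adjusted p = 0.726). *Tyrobp* (chr7:30413760-30417585, plus strand) was at 5.22, 5.78 and 6.30 FPKM against 8.36, 6.29 and 7.49 FPKM. The lowest labelled null value of *Tyrobp* was only just under the highest control value, 6.294 against 6.295 FPKM. Its log2 fold change was 0.35 ± 0.13, with an unadjusted p of 0.0258 and an adjusted p of 0.564 (limma). *Tyrobp* stood 2.31 to 3.21 times above *Trem2* in the controls and 2.23 to 3.20 times above it in the labelled null libraries.

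*Aif1* (chr17:35170991-35176068, minus strand), which encodes the actin-binding protein IBA1 used to stain microglia, was at 0.841, 1.57 and 1.31 FPKM in control libraries against 0.925, 0.944 and 1.56 FPKM in labelled null libraries. The spread within a group was larger than the difference between the means, 1.24 ± 0.37 against 1.14 ± 0.36 FPKM (SD, n = 3), and the log2 fold change was -0.11 ± 0.27 (adjusted p = 0.942).

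Per length, the order of the 10 genes by mean FPKM over the 6 libraries was *C1qb* (8.84), *C1qa* (8.73), *C1qc* (7.77), *Tyrobp* (6.57), *Csf1r* (3.92), *Trem2* (2.40), *Cx3cr1* (2.21), *P2ry12* (2.21), *Aif1* (1.19) and *Itgam* (0.589). The ranges of the C1q chains overlapped one another and that of *Tyrobp*, and those of *Trem2*, *Cx3cr1* and *P2ry12* overlapped as well. *Csf1r* lay below every value of *Tyrobp* in the 6 libraries.

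Across the 10 genes, none passed an adjusted p of 0.05 (smallest 0.335), beside 0.224% of all genes tested. Unadjusted p-values were under 0.05 for 2 genes, *Csf1r* and *Tyrobp*, both higher, where 4.6% of all genes were called higher and 3.55% lower by that rule. *Csf1r* was the 1 gene of 10 whose groups did not overlap, where 14.2% of all genes did not. The log2 fold change was above 0 for 8 genes and below 0 for *P2ry12* and *Aif1*, beside 53.3% of all genes above 0, and the median was 0.27 beside 0.01. The 10 genes were correlated over the libraries (median r 0.61), so these counts are not 10 separate observations. In terms of fold of FPKM + 0.1, the 10 intervals together lay between 0.604 and 1.84. On that scale, a change of 2-fold in either direction was outside the 95% interval of each gene. The scale understates folds of low genes such as *Itgam*, whose upper bound was the 1.84.

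**Figure D2:**
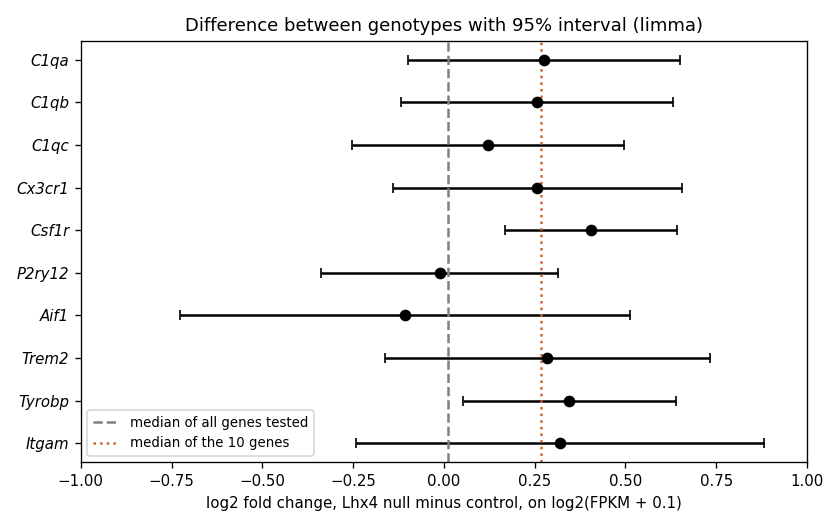
Log2 fold change (labelled *Lhx4* null minus control, x axis) of each gene with its 95% interval from limma; dashed, the median of all genes tested (0.01), and dotted, the median of the 10 genes (0.27). The intervals of *Csf1r* and *Tyrobp* lie above 0, and the other 8 hold 0.

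The 10 genes differed between libraries of the same group, mostly in the same direction. Labelled null replicate 3 was above a gene's mean over the 6 libraries for all 10 genes and held the highest value for 6 of them. Control replicate 1 was below that mean for all 10 and held the lowest value for 6. Labelled null replicate 2 was above the mean for only 2 genes, *Csf1r* and *P2ry12*, whereas control replicate 2 was above it for 5. Summed over the 10 genes, the libraries held 37.0, 42.2 and 42.0 FPKM in the controls and 47.9, 40.2 and 57.1 FPKM in the labelled null group, so that the groups overlapped.

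The median of the 10 fold changes rested on labelled null replicate 3: without it the median was 0.11, and without labelled null replicate 2 it was 0.40. Without the other libraries in turn it was between 0.22 and 0.31. *Csf1r* had a log2 fold change of 0.38 to 0.45 with any 1 library left out. None of the 10 genes passed the test across all genes, so no increase is established. In whole retina, differences in the number of microglia, in these transcripts per microglial cell and in the RNA of other cells cannot be told apart.

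**Figure D3:**
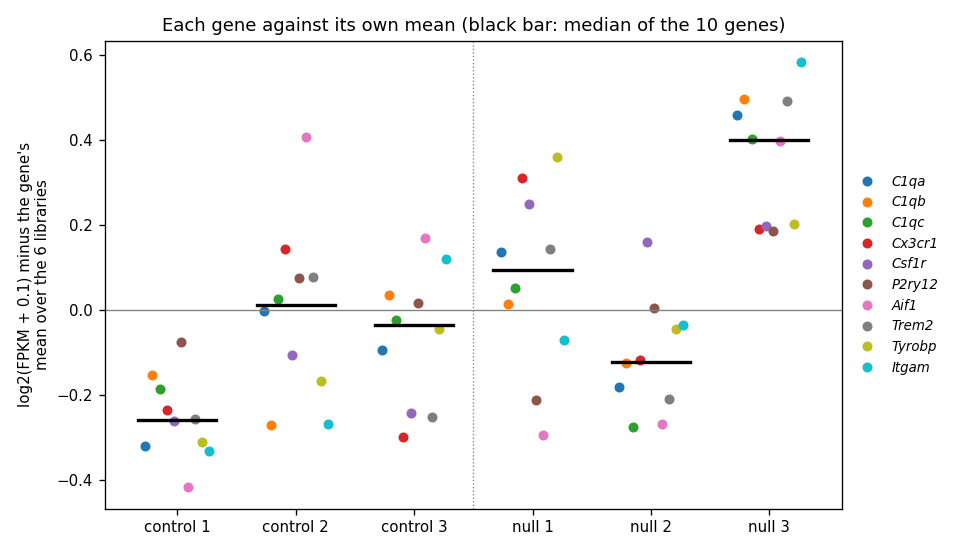
Log2(FPKM + 0.1) of each gene minus its mean over the 6 libraries (y axis), by library (x axis), with a black bar at the median of the 10 genes. The medians are -0.26, 0.01 and -0.03 in control replicates 1 to 3 and 0.10, -0.12 and 0.40 in labelled null replicates 1 to 3.

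As a description over the 6 libraries, the Pearson correlation between members was above 0 for 41 of the 45 pairs and above 0.5 for 29, with a median of 0.61 and a range from -0.17 to 0.96. The points share library and depth. *C1qa* had the highest median correlation with the other members (0.76) and *P2ry12* the lowest (0.42), with *Csf1r* at 0.47.

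The genes outside the 10 whose pattern over the 6 libraries was most like the members' mean standardized profile, ranked over the 12476 genes whose mean reached 1 FPKM, were *Ccdc138* and *Pde11a* (r = 0.99 each), *Ccdc17* (0.98), *Mpeg1* (0.96), *Fam131c* (0.96), *Ttc12* (0.95), *Pon2* (0.94), *Metap1* (0.94), *Grasp* (0.94) and *Dcdc2a* (0.94). Of these, *Mpeg1* encodes perforin-2 of macrophages. It was at 2.28, 2.80 and 2.55 FPKM in control libraries against 3.39, 2.75 and 3.89 FPKM in labelled null libraries (log2 fold change 0.37, adjusted p = 0.605). Among 10 other microglia genes at that level, the median r was 0.40 beside -0.02 for all genes ranked. *Ctss* (r = 0.92) and *Fcrls* (0.82, singled out after its value was seen) were among the closest, whereas *Itgb5* had an r of 0.19. Each r is over 6 libraries that differ in depth, and carries no test.

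None of 24 other microglia genes tested passed an adjusted p of 0.05. Of these, 20 were higher and 4 lower, beside 53.3% of all genes higher, and the median log2 fold change was 0.21. The lysosomal gene *Ctss*, a cathepsin, had a log2 fold change of 0.25 ± 0.16 (adjusted p = 0.716). Unadjusted p-values were under 0.05 for *Sall1*, *Itgb5* and *Spi1*, where 4.6% of all genes tested were called higher and 3.55% lower. *Sall1*, a transcription factor of microglia, was at 0.638, 0.792 and 0.636 FPKM in control libraries against 0.906, 0.934 and 1.06 FPKM in labelled null libraries (log2 fold change 0.44 ± 0.17, adjusted p = 0.586). *Itgb5*, an integrin chain, had a log2 fold change of 0.23 ± 0.08 (adjusted p = 0.547). Its mean was 20.7 FPKM, beside 3.92 FPKM for *Csf1r*, and which cells its transcripts came from was not tested. *Spi1*, which encodes PU.1, lay on the other side, at 0.707, 0.907 and 1.31 FPKM against 0.435, 0.441 and 0.815 FPKM (log2 fold change -0.70 ± 0.29, adjusted p = 0.598), with overlapping groups. *Sall1* and *Spi1* fall outside the rule for named genes and were singled out after their values were seen. *Cst3*, which encodes cystatin C and is also made by other retinal cells, was at 354 to 437 FPKM with a log2 fold change of -0.04 ± 0.11.

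Downstream of TREM2, TYROBP and the Fc receptors, none of 14 genes had an unadjusted p under 0.05; 10 were higher and 4 lower, with a median log2 fold change of 0.09. *Fcgr3* (0.37 ± 0.18) and *Fcer1g* (0.23 ± 0.25), a low-affinity Fc receptor and the shared signalling chain, had adjusted p-values of 0.642 and 0.828. *Lat2*, an adaptor, did not overlap between the groups (1.44 to 1.57 FPKM in controls, 1.69 to 2.03 in labelled null, adjusted p = 0.680), and shares 36.3% of its exonic bases with *Rfc2*. *Plcg2*, a phospholipase gene, did not overlap in the other direction (0.248 to 0.298 FPKM in controls, 0.218 to 0.241 in labelled null, log2 fold change -0.20 ± 0.22, adjusted p = 0.832). *Plcg2* was singled out after its values were seen. The groups did not overlap for 2 of the 14 genes, close to the 14.2% of all genes tested. The kinase gene *Lyn* was level, at 0.00 ± 0.16.

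Of 19 genes of phagocytosis, lysosomes and activated microglia tested, 17 were higher in the labelled null libraries, beside 53.3% of all genes tested. Their median log2 fold change was 0.17, and none passed an adjusted p of 0.05. Unadjusted p-values were under 0.05 for *Apoe*, *Pros1*, *Mertk* and *Cst7*, all higher. By that rule, 4.6% of all genes tested were called higher. *Apoe*, a lipid carrier that glia secrete, was at 272, 301 and 291 FPKM in control libraries against 360.2, 356 and 388 FPKM in labelled null libraries, without overlap (log2 fold change 0.35 ± 0.08, adjusted p = 0.230). *Pros1*, the bridging ligand of the TAM receptors, was at 1.85 to 2.21 FPKM against 2.63 to 2.89 FPKM, and *Mertk*, the receptor itself, at 1.28 to 1.70 FPKM against 1.85 to 1.94 FPKM. The lysosomal genes *Ctsd* (0.13 ± 0.07), *Ctsb* (0.06 ± 0.07) and *Cd63* (0.16 ± 0.10) had overlapping groups. *Spp1*, osteopontin, varied over 10-fold within each group, at 0.750, 7.65 and 0.676 FPKM against 7.08, 0.442 and 1.79 FPKM. *Pros1*, *Mertk* and *Cst7* were likewise singled out after their values were seen. The mean of *Apoe* over the 6 libraries was 328 FPKM, beside 3.92 FPKM for *Csf1r*. Which cells of the whole retina these transcripts came from was not tested. The Müller glia and the pigment cell lists were also mostly higher, at 6 of 7 genes each.

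The C1q chains were above the other genes of classical and lectin activation in every library. Of 12 genes of classical and lectin activation, 7 had a mean under 0.1 FPKM, among them *C1ra*, *C1rb* and *C4b*, whose products act after C1q. The 5 tested had a median log2 fold change of -0.02. *C3*, the central component, was at 0.222 to 0.438 FPKM in control libraries against 0.229 to 0.437 FPKM in the labelled null libraries. *C2* (-0.08 ± 0.24), *Masp2* (0.00 ± 0.48) and *C1s1* (-0.29 ± 0.25), which encode proteases, had overlapping groups. *C1s2*, a copy of the C1s protease gene, was at 0.182, 0.228 and 0.195 FPKM against 0.271, 0.330 and 0.431 FPKM (log2 fold change 0.54 ± 0.24, unadjusted p = 0.0499, adjusted p = 0.612). *C1s1* and *C1s2* are closely related copies between which reads could be split. Exons of *Masp2* and *C2* lie by 54.9% and 46.9% in those of other genes, and those of *Cfb* by 79.5%.

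Of 10 genes of the alternative and terminal pathways, 4 were tested. *Cfp*, which encodes properdin, was by far the most abundant at 13.3 to 14.8 FPKM in the control libraries and 14.2 to 16.3 FPKM in the labelled null libraries (log2 fold change 0.08 ± 0.09, adjusted p = 0.847). *C8g* (0.06 ± 0.17), *Cfb* (-0.13 ± 0.23) and *C8b* (0.41 ± 0.29) were at or below 1.62 FPKM, and the terminal components *C6* and *C9* were listed at 0 in every library.

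Among 13 regulators of complement tested, 7 were higher and 6 lower, beside 53.3% of all genes higher. Their median log2 fold change was 0.00, and none passed an adjusted p of 0.05. *Srpx2*, which encodes a secreted protein that binds C1q, was at 0.297, 0.421 and 0.433 FPKM in control libraries against 0.0796, 0.0431 and 0.0563 FPKM in labelled null libraries. Every labelled null value was thus below every control value, a log2 fold change of -1.59 ± 0.26 on the log2(FPKM + 0.1) scale with an adjusted p of 0.0715 (limma). At this level the size depends on the pseudocount, -0.38 with 1 FPKM and -2.51 with 0.01 FPKM, and *Srpx2* passed in 2 of 13 alternatives, with no filter on low values (adjusted p = 0.0480) and with no mean-variance trend (0.0284). The study lists *Srpx2* from these same libraries, so its choice is not independent of its direction. *Clu* (0.32 ± 0.23), *Susd4* (0.24 ± 0.19), *Vtn* (-0.01 ± 0.21) and *Cr1l* (-0.02 ± 0.16), the most abundant regulators, had overlapping groups.

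Of 6 genes for complement receptors and C1q-binding surface proteins, *Lrp1*, an endocytic receptor, had an unadjusted p under 0.05, at 21.9, 30.2 and 24.7 FPKM against 32.6, 35.3 and 27.3 FPKM (log2 fold change 0.31 ± 0.14, adjusted p = 0.609). *Calr* (0.04 ± 0.09), *Cd93* (-0.14 ± 0.18) and *Cr2* (0.42 ± 0.28) had overlapping groups. Of 8 genes for signals between retinal cells and microglia, *Csf1*, a ligand of the *Csf1r* product, was at 1.10, 1.46 and 1.11 FPKM in control libraries against 1.95, 1.42 and 1.68 FPKM in labelled null libraries (log2 fold change 0.43 ± 0.18, unadjusted p = 0.0434, adjusted p = 0.605). *Il34*, the other ligand, was at 0.638, 0.554 and 0.569 FPKM against 0.780, 1.11 and 0.664 FPKM, without overlap (log2 fold change 0.44 ± 0.21, adjusted p = 0.643). *Il34* was singled out after its values were seen. The groups overlapped for *Cd200* (-0.05 ± 0.08), *Sirpa* (0.03 ± 0.10) and *Tgfb2* (0.19 ± 0.12) and did not for *Cd47* (0.16 ± 0.09, adjusted p = 0.686).

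**Figure D4:**
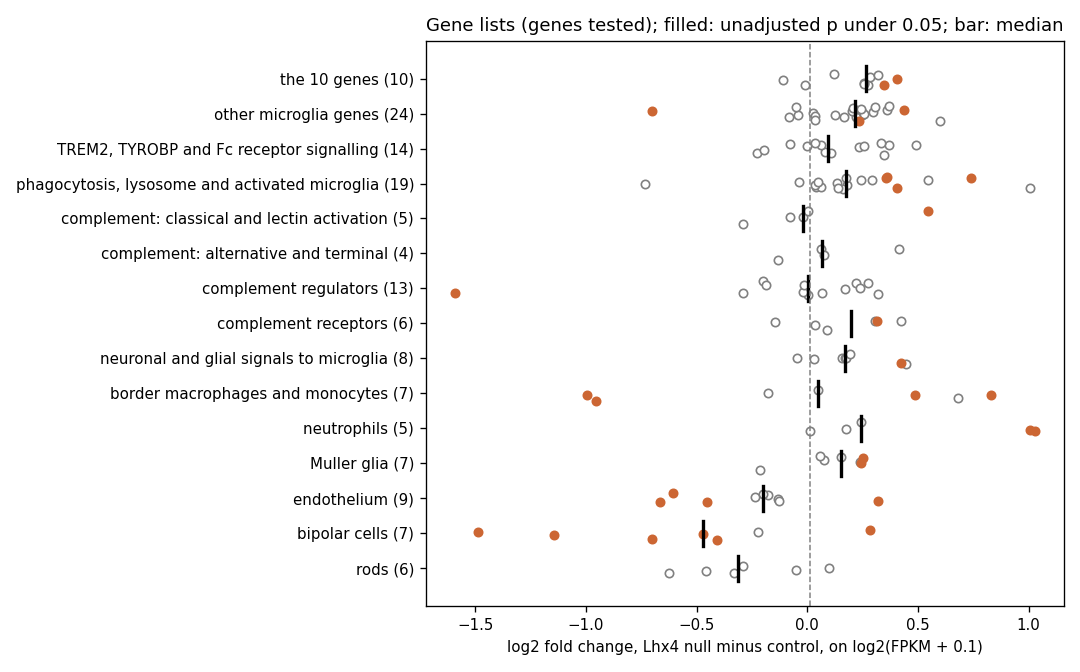
Log2 fold change (labelled *Lhx4* null minus control, x axis) of every tested gene of each list, with the number tested in brackets; filled points have an unadjusted p under 0.05, the bar is the list's median and the dashed line the median of all genes tested (0.01). The 10 genes have a median of 0.27, and the bipolar cell list one of -0.47.

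Markers of other cells that these genes could come from were examined beside them. Of 15 genes of border macrophages and monocytes, 8 had a mean under 0.1 FPKM, including the defining *Mrc1*, *Cd163*, *Pf4* and *Ccr2* (highest mean 0.0634 FPKM), and the list summed to 5.28 to 6.51 FPKM in the control libraries and 7.06 to 7.86 FPKM in the labelled null libraries. *Stab1*, singled out after its values were seen, carried most of that sum, at 3.60 to 3.88 FPKM against 4.56 to 6.28 FPKM (log2 fold change 0.48 ± 0.13, adjusted p = 0.381). *Ccl6* was higher (0.83 ± 0.27) and *Lyve1* (-0.997 ± 0.385) lower in the labelled null libraries without overlap, with adjusted p-values of 0.501 and 0.582, so neither passed the test. Neutrophil genes summed to 1.46 to 1.69 FPKM against 2.64 to 4.08 FPKM, of which *Lcn2* (1.01 ± 0.19, adjusted p = 0.121) and *Ncf4* (1.03 ± 0.44, adjusted p = 0.609) had the largest log2 fold changes, while *Mpo* and *Elane* were at or next to 0. The groups overlapped for *S100a8* (0.01 ± 0.73, adjusted p = 0.998) and *S100a9* (0.18 ± 0.82, adjusted p = 0.974), both singled out after their values were seen. Both were at 0 FPKM in labelled null replicate 1 and highest in labelled null replicate 3, at 0.496 and 1.26 FPKM. The study lists *Ccl6*, *Lyve1*, *Lcn2* and *Ncf4* from these same libraries, so their choice is not independent of their direction. Of 8 lymphocyte genes, 6 had a mean under 0.1 FPKM, and the T cell gene *Cd3e* was listed at 0 in every library. The 2 tested were both higher, *Cd4* at 0.662 to 0.826 FPKM against 1.01 to 1.24 FPKM without overlap (0.50 ± 0.17, unadjusted p = 0.0176, adjusted p = 0.519) and *Cd8a* with overlap (0.24 ± 0.20, adjusted p = 0.774), and they are named because they are the whole of the tested list. The part of these cells in the values of the 10 genes was not tested.

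Non-immune markers differed in their own directions, where 53.3% of all genes tested were higher. The median log2 fold change was -0.20 for endothelial genes (8 of 9 lower), 0.15 for Müller glia genes (6 of 7 higher), 0.61 for pigment cell genes (6 of 7 higher, *Mlana* by 1.504 ± 0.357, adjusted p = 0.270), -0.31 for rod genes and -0.47 for bipolar cell genes. Past an adjusted p of 0.05 were *Grm6*, given above, the bipolar transcription factor gene *Isl1* (-0.70 ± 0.09, adjusted p = 0.0306) and the collagen gene *Col1a2* (1.26 ± 0.18, adjusted p = 0.0489). Under the 14 alternatives, *Grm6* passed in 10, *Isl1* in 5 and *Col1a2* in 2, and with any 1 library left out *Isl1* and *Col1a2* did not pass. *Grm6* had adjusted p-values of 0.056 without labelled null replicate 2 and 0.051 without labelled null replicate 3. *Fn1* had an adjusted p of 0.0534 (1.16 ± 0.17) and passed in 2 of the 14, a mean of at least 1 FPKM (adjusted p = 0.0463) and without control replicate 2 (adjusted p = 0.0470). *Trpm1* (-1.15 ± 0.19, adjusted p = 0.0880), the oligodendrocyte genes *Mog* (-0.86 ± 0.21, adjusted p = 0.307) and *Mbp* (0.51 ± 0.13, adjusted p = 0.345, singled out after its values were seen) and *Vsx1* (0.28 ± 0.12, adjusted p = 0.598) did not pass, and the lens gene *Cryaa* varied from 0.0258 to 6.57 FPKM. The study's list from these libraries also holds *Mlana*, *Grm6*, *Col1a2*, *Fn1*, *Trpm1* and *Mog*. FPKM are shares of a library, so the level of a microglial gene depends also on the RNA of the other cells.

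A last list held 11 immune cell genes that the study's supplementary list for postnatal day 6 gives as higher in *Lhx4* null retinas. Those samples were not analysed here. In the 6 libraries, *Ptpn6*, *Ly75*, *Spp1*, *Tgfb1* and *Selplg* were above 0 and *Ms4a6d*, *H2-DMb2*, *Entpd1*, *Klhl6*, *Itgb2* and *P2ry14* below 0, with a median log2 fold change of -0.07. No gene of the list had an unadjusted p under 0.05, and the values ran from -0.50 ± 0.51 for *Ms4a6d* to 0.49 ± 0.27 for *Ptpn6*.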

How the data were processed

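Retinal RNA of 3 control animals and 3 *Lhx4* null animals was taken at postnatal day 7, and libraries were made with a TruSeq RNA kit and sequenced as paired reads. The submitters' processing notes name TopHat2, Cufflinks and GRCm38, with no versions. The deposited table holds FPKM per gene made by the authors, 1 column per library, without counts or depths, so the precision of a low FPKM is unknown. Whether the counting used strand is not given in the sources used here. No value was rescaled here in the main analysis.

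Log2(FPKM + 0.1) was fitted with limma 3.58.1 in R 4.3.3 (lmFit, then eBayes with trend, two-sided) over the 15200 genes whose mean reached 0.1 FPKM, with Benjamini-Hochberg adjustment over all of them. A fold change on this scale understates that of low genes. The fit was tested on simulated data. Gene positions and overlaps came from GENCODE vM21, in which 21603 of 21744 identifiers matched. Pearson's r between replicates across genes was 0.982 to 0.992. Relative depth was taken from the most frequent ratio between libraries of values under 0.1 FPKM.

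The rule for the members names genes and uses no measured value, but the members and the gene lists were chosen with earlier results of these data known. Named genes were *Lhx4*, the members, list genes past an adjusted p of 0.05, for each pathway list up to 4 more of the highest mean FPKM and the gene of smallest p, the 10 genes most like the members, and list genes that the study names as changed. Others given with a fold change or r are said in the text to have been singled out after their values were seen, and a few named by the rule are not reported here. Alternatives were other pseudocounts (0.01 and 1 FPKM), filters, scalings, no trend, a replicate block, and leaving out each library. No batch is named in the labels. The replicates are separate mice.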

Additional observations from a re-analysis of the deposited data

How the results depend on the processing

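None of the 10 genes passed an adjusted p of 0.05 under any of the 14 alternatives with limma, where 1 to 4 had an unadjusted p under 0.05. The median of their log2 fold changes was 0.20 to 0.27 under the 8 other pseudocounts, filters, scalings and models and 0.11 to 0.40 with 1 library left out. Among those 8, the replicate block, no trend and no filter on low values leave every fold change of the 10 genes as it was by construction. *Csf1r* kept an unadjusted p under 0.05 in all 14 (log2 fold change 0.33 to 0.45, adjusted p 0.253 to 0.981) and *Tyrobp* in 10. A mean of at least 1 FPKM left 9 of the genes, without *Itgam*. Over all genes, those past an adjusted p of 0.05 were 11 lower and 4 higher with a replicate block, 6 higher with no filter on low values, and, with 1 library left out, 12 to 19 lower and 2 to 12 higher. Deviations from the group means had r = -0.13, 0.00 and 0.16 for same-numbered libraries and -0.24 to 0.24 for differently numbered ones. With so few libraries, these values cannot show whether the numbers pair the mice. The block left 0 of the 10 genes past the threshold. Each replicate number holds 1 control and 1 labelled null library, so the block cannot change a fold change or its direction, only its p.

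Log2 fold changes that changed sign with 1 library left out ran as follows, and the cause was not tested: *C1qc* -0.051 to 0.29, *P2ry12* -0.11 to 0.090, *Aif1* -0.34 to 0.069, *Cst3* -0.14 to 0.016, *Lyn* -0.089 to 0.049, *C2* -0.27 to 0.10, *Masp2* -0.30 to 0.60, *C3* -0.27 to 0.20, *C8g* -0.049 to 0.17, *Cfb* -0.24 to 0.029, *Vtn* -0.24 to 0.15, *Cr1l* -0.20 to 0.10, *Calr* -0.018 to 0.12, *Cd93* -0.25 to 0.042, *Sirpa* -0.035 to 0.11, *Cd200* -0.097 to 0.013, *Spp1* -0.77 to 1.26, *Itgb2* -0.25 to 0.21, *Klhl6* -0.25 to 0.16, *P2ry14* -0.33 to 0.16, *Cryaa* -1.29 to 1.57, *H2-DMb2* -0.40 to 0.17 and *Entpd1* -0.39 to 0.14. *Cryaa* was at -0.17 with a pseudocount of 1 FPKM. *Masp2* was at -0.050 with that pseudocount, -0.0078 with median of ratios scaling and -0.025 with quantile normalization. Depth is known only relative to control replicate 3, and at 3 mice a group the smallest exact permutation p is 0.1.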
